A study of Mus musculus with 2 samples.

Results

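The 10 genes described here are *Dlk1*, *Igf2*, *Igf2r*, *Grb10*, *Mest*, *Plagl1*, *Peg3*, *Ndn*, *Nnat* and *Sgce*, imprinted genes of which most regulate growth. They were taken by name, with every probe set that the platform annotation paired with 1 of them alone, which gave 29 probe sets of 34945 and 10 genes of 18193. A further probe set is annotated to both *Airn* and *Igf2r* and was left out. They were read in mouse embryonic fibroblasts (MEFs), primary mesenchymal cells of C57BL/6 embryos at embryonic day 12.5, of the genotypes BCL11B-/- and BCL11B+/+, with 1 Affymetrix array for each. BCL11B is a zinc finger transcription factor, and the labels give its knockout as that of the mouse, with no tissue-specific driver named. Cells of both genotypes were at passage 2 and had been kept for 12 h in adipocyte differentiation medium with 0.5 mM methylisobutylxanthine, 1 μM dexamethasone, 10 μM pioglitazone, insulin at 10 μg/ml and 10% fetal bovine serum. The sources used here do not give the number or the sex of the embryos behind each culture. Every value below is a level on the log2 scale after robust multi-array average (RMA), or a difference of such levels, BCL11B-/- minus BCL11B+/+. There were no replicates, so no p-value is given, and a gene counts as higher or lower where the arrays differed by at least 1.5-fold.

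An imprinted gene is transcribed mainly from the copy inherited from 1 parent. Paternally expressed genes such as *Igf2* tend to promote growth of the embryo, and maternally expressed genes such as *Igf2r* and *Grb10* tend to restrain it. Many of these genes are abundant in embryonic mesenchyme and decline after birth. *Dlk1*, also called preadipocyte factor Pref-1, is a marker of preadipocytes that holds back adipogenesis and is switched off as fat cells mature. The array reads the sum of both copies, so it cannot show from which parent a transcript came. Each probe set has its own affinity, so levels of different genes were not ordered against each other.

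The 4 probe sets of the targeted gene *Bcl11b* were all lower in BCL11B-/- MEFs, at 7.40, 6.33, 5.54 and 5.32, against 8.77, 7.51, 6.79 and 6.89 in BCL11B+/+ MEFs. The deleted exons are not named in the sources used here, and probe sets outside them check no genotype. Genes whose mean of both arrays was under 5 were left out of counts, and all 12 fibroblast markers and all 10 genes passed this level. The cultures also differed in other genes. *Xist*, the RNA of the inactive X chromosome, read 4.80 in BCL11B-/- and 10.80 in BCL11B+/+ MEFs. Its dimmer probe sets read 2.85 and 3.71 in BCL11B-/- MEFs, against 10.39 and 8.40 in BCL11B+/+ MEFs. The Y-linked *Eif2s3y* read 8.97 and 7.89, *Kdm5d* 7.81 and 6.84, and *Uty* 7.61 and 6.80, in the same order of cultures. Past 1.5-fold in BCL11B-/- MEFs, 9 of 11 macrophage markers, 2 of 12 fibroblast markers (*Lum* and *Thy1*) and 2 of 8 mesothelial markers (*Lrrn4* and *Gpm6a*) were lower. Higher were 4 of 6 measured chondrocyte markers. Over all 12331 genes counted, 1.75% were lower and 1.61% higher. With 1 culture per genotype, an effect of genotype and a difference between cultures, including embryo sex, cannot be told apart.

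Of the 10 genes only *Dlk1* was past 1.5-fold. It encodes a transmembrane protein with EGF-like repeats, related to Notch ligands, whose shed outer part acts on preadipocytes. Its brighter probe set read 10.93 in BCL11B-/- and 11.98 in BCL11B+/+ MEFs, which is 2.06-fold lower. This probe set carries a suffix that marks probes shared between transcripts. The other *Dlk1* probe set, without a suffix, read 6.85 in BCL11B-/- and 7.71 in BCL11B+/+ MEFs, which is 1.82-fold lower. Both probe sets thus gave a lower level in BCL11B-/- MEFs, with differences of −1.04 and −0.86. As a technical yardstick, differences from different probe sets of 1 gene had a pooled SD of 0.145 over 5543 genes, a spread that holds no variation between cultures. Among the 12331 genes with a mean of at least 5, *Dlk1* had the 58th lowest difference. At least 1.5-fold lower were 1.75% of these genes, 1.61% were higher, and 3.36% passed in either direction. The 3 genes whose difference lay nearest to that of *Dlk1* were *Adh1* (−1.04), *Gsta3* (−1.05) and *Ccl7* (−1.05). With 2 arrays this likeness is that of 1 difference, and 21 genes lay within 0.1 of it.

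The other 9 genes were neither higher nor lower by 1.5-fold. The median difference of all 10 was 0.11, beside 0 for all genes counted, and 7 were above 0 and 3 below, where 48.8% of all genes counted lay above 0 and 48.5% below. Of the 8 paternally expressed genes 5 were above 0 and 3 below, and both maternally expressed genes were above 0. Against the yardstick of 0.145, 5 genes lay higher by more than it, 1 (*Dlk1*) lay lower by more than it and 4 lay within it. Over all genes counted, 38.0% lay beyond it in either direction, and no share for each direction is given here to set beside these counts.

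**Figure D1:**
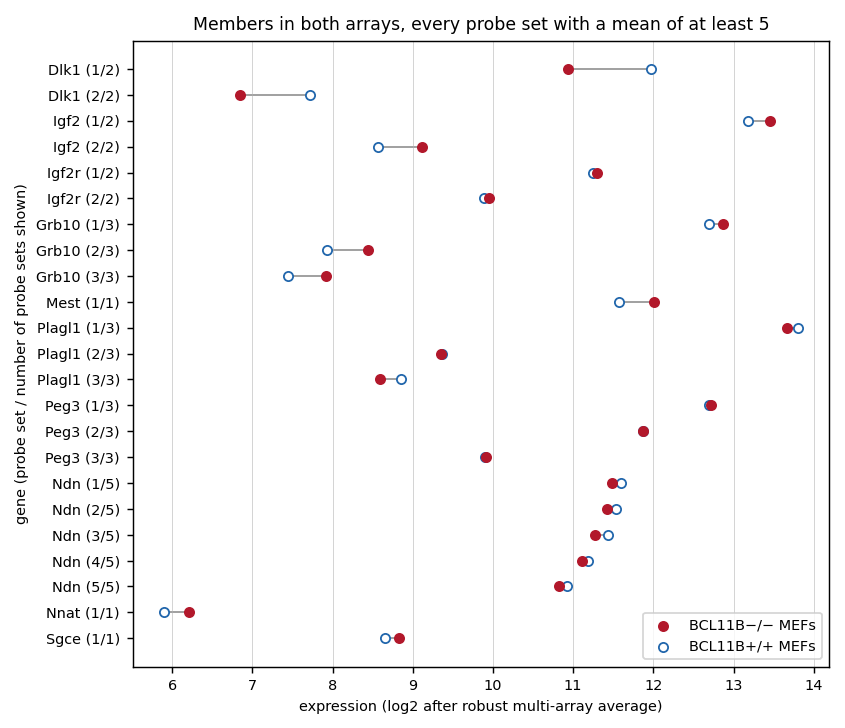
Expression (horizontal axis, log2 after RMA) of the 10 genes on each of their probe sets with a mean of at least 5 (vertical axis) in BCL11B-/- MEFs (filled circles) and BCL11B+/+ MEFs (open circles) (1 array each, hence no error bars). The widest gaps are those of *Dlk1* (10.93 and 11.98, and 6.85 and 7.71), where the filled circle lies to the left.

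*Igf2* encodes insulin-like growth factor II, a main growth factor of the fetus. Its brighter probe set read 13.46 in BCL11B-/- and 13.17 in BCL11B+/+ MEFs, 1.22-fold higher. That level is close to the highest value on the arrays, 14.15 in BCL11B-/- and 14.16 in BCL11B+/+ MEFs. Its other probe set read 9.11 in BCL11B-/- and 8.57 in BCL11B+/+ MEFs, 1.46-fold higher. Both probe sets gave a higher level in BCL11B-/- MEFs, with differences of 0.28 and 0.54, so the size depended on the probe set. *Igf2r* encodes the receptor that carries IGF-II to the lysosome for breakdown and also sorts mannose 6-phosphate-tagged enzymes. Its probe sets read 11.30 and 9.96 in BCL11B-/- MEFs, against 11.25 and 9.89 in BCL11B+/+ MEFs. These differences of 0.049 and 0.069 lay well within the yardstick. *Grb10* encodes an adaptor protein that binds the insulin and IGF-I receptors and dampens their signal. Its brightest probe set read 12.87 in BCL11B-/- and 12.70 in BCL11B+/+ MEFs, a difference of 0.18. The other 2 read 8.44 and 7.92 in BCL11B-/- MEFs, against 7.93 and 7.44 in BCL11B+/+ MEFs. All 3 were higher in BCL11B-/- MEFs, the dimmer probe sets by 0.52 and 0.48, and their mean difference was 0.39. All 3 carry a suffix that marks probes shared between transcripts.

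*Mest*, also called Peg1, encodes a hydrolase-like protein of the endoplasmic reticulum that is linked to fat cell size in mice. It had 1 probe set, which read 12.00 in BCL11B-/- and 11.57 in BCL11B+/+ MEFs. This level was 1.35-fold higher, and the difference of 0.43 was the highest of the 10 genes on their brightest probe sets. Dimmer probe sets of *Igf2* (0.54) and *Grb10* (0.52 and 0.48) differed by more. *Nnat* encodes neuronatin, a small proteolipid of the endoplasmic reticulum found in neurons and in adipose and endocrine cells. Its only probe set was dim, at 6.21 in BCL11B-/- and 5.90 in BCL11B+/+ MEFs, a difference of 0.31. *Sgce* encodes ε-sarcoglycan, a membrane glycoprotein of the dystrophin-associated complex. It read 8.83 in BCL11B-/- and 8.66 in BCL11B+/+ MEFs, and 4.97 and 4.83 in the same order on a probe set under the level of 5. These differences were 0.17 and 0.15.

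The nuclear regulators among the 10 were near 0 or slightly lower. *Plagl1*, also called Zac1, encodes a zinc finger transcription factor that acts on other imprinted genes, among them *Igf2*. Its probe sets read 13.67, 9.35 and 8.59 in BCL11B-/- MEFs, against 13.80, 9.36 and 8.85 in BCL11B+/+ MEFs. All 3 were lower in BCL11B-/- MEFs, by differences of −0.13, −0.015 and −0.26. The brightest lies even closer to the highest value on the arrays than that of *Igf2*. *Peg3* encodes a large zinc finger protein. Its 3 probe sets with a mean of at least 5 read 12.71, 11.87 and 9.91 in BCL11B-/- MEFs, against 12.69, 11.88 and 9.90 in BCL11B+/+ MEFs. These differed by 0.023, −0.010 and 0.0030, all well within the yardstick, and its other 2 probe sets read under 3 in both arrays. *Ndn* encodes necdin, a MAGE-family protein that restrains cell cycle entry and adipocyte differentiation. Its 5 probe sets above the level of 5 read from 10.82 to 11.49 in BCL11B-/- MEFs and from 10.92 to 11.60 in BCL11B+/+ MEFs. All 5 were slightly lower in BCL11B-/- MEFs, with differences from −0.17 to −0.077, as were its other 3, which were dim.

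The start regions of 3 of the genes are shown because these genes had the lowest difference (*Dlk1*), the highest (*Mest*) and the one nearest to 0 (*Peg3*) on their brightest probe sets. Each is the run of 250 bases before a RefSeq transcript start on build GRCm38.p6, on the gene's strand. *Dlk1* is on the plus strand at chr12:109452573-109452822, *Mest* on the plus strand at chr6:30737800-30738049, the second of its 3 starts, and *Peg3* on the minus strand at chr7:6730420-6730669. Capitals mark GGGGCCCC, which PLAGL1 binds and which reads the same on both strands, TGCCGC or its reverse complement GCGGCA, which ZFP57 binds when methylated to keep imprints, and GGTCA or TGACC, bound by nuclear receptors such as the COUP-TF partners of BCL11B. No marked motifs overlap.
Dlk1: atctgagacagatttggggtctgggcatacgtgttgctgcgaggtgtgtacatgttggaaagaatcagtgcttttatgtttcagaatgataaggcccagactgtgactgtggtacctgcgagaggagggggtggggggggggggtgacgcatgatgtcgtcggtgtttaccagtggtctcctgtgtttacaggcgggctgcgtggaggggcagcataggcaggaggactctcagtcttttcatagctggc
Mest: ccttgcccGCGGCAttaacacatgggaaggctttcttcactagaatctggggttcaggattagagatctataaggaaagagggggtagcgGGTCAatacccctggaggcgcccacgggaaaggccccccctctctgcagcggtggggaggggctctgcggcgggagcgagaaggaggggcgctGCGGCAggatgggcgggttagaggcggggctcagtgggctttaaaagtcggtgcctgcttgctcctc
Peg3: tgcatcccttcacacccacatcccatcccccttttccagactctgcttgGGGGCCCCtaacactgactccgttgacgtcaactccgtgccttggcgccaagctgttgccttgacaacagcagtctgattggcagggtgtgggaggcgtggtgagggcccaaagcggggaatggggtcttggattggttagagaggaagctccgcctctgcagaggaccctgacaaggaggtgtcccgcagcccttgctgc
The *Dlk1* run holds none of the 3 motifs, the *Mest* run holds 2 copies of TGCCGC and 1 of GGTCA, and the *Peg3* run holds 1 GGGGCCCC. RefSeq starts were matched for 9 of the 10 genes (not *Sgce*), with 15 runs in all, since *Igf2* has 4, *Mest* has 3 and *Grb10* has 2. The *Mest* run shown was chosen because it holds motifs. The first *Mest* start, at chr6:30733256-30733505, holds none of the 3, and the last lies within a few bases of the one shown and holds the same ones. GGGGCCCC was found in 1 of these 15 runs, against 0.889% of 32851 runs of all genes. TGCCGC was found in 3, those of *Plagl1* and *Mest*, against 8.68% of all runs, and the 3 include 2 *Mest* runs that share nearly all their bases. GGTCA was found in 6, of *Igf2*, *Igf2r*, *Grb10* and *Mest*, against 35.2% of all runs. The number of CpG dinucleotides ranged from 1 (an *Igf2* start) to 40 (a *Grb10* start), and 12 of the 15 runs lay above the median of 6 of all runs. A match of letters is a description and not a binding site.

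*Dlk1* and *Bcl11b* lie on the same chromosome, 12, with 14 other protein-coding genes between them in the RefSeq gene table. Of the genes in between, 10 had a mean of at least 5, and none of these was 1.5-fold higher or lower. Their differences ran from −0.25 for *Setd3*, which encodes a histidine methyltransferase, to 0.16 for *Wars*, which encodes a tryptophanyl-tRNA synthetase, with a median of 0.044. The next highest was *Eml1* with 0.13 and the next lowest *Ccnk* with −0.047. These are values of the brightest probe sets, and the dimmer probe set of *Setd3* went the other way, with 0.27. Past *Dlk1* lie the maternally expressed non-coding RNA genes of the same imprinted domain. *Meg3* read 12.01 in BCL11B-/- and 12.42 in BCL11B+/+ MEFs, *Rian* read 11.33 and 11.73, and *Mirg* read 7.03 and 7.35, in the same order. None was past 1.5-fold, with differences of −0.40, −0.39 and −0.32. All 5 *Meg3* probe sets with a mean of at least 9 were lower in BCL11B-/- MEFs, from −0.55 to −0.40, while its other 6 ranged from −0.073 to 0.29. All 4 *Rian* probe sets were lower, from −0.45 to −0.22, and those of *Mirg* differed by −0.32 and −0.057. Of the domain only *Dlk1* was thus past 1.5-fold. *Dio3os*, at the far end of the domain, read 5.84 in BCL11B-/- and 5.80 in BCL11B+/+ MEFs. *Dio3* and *Rtl1* had no probe set paired with them alone.

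**Figure D2:**
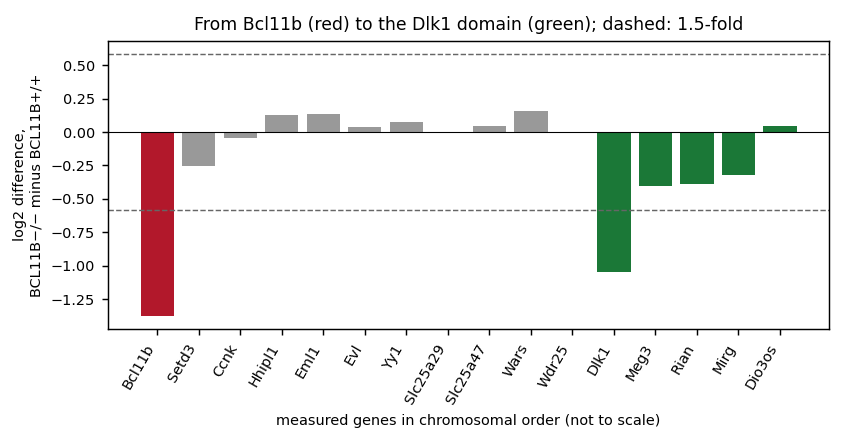
Log2 difference between BCL11B-/- and BCL11B+/+ MEFs (vertical axis) of the genes with a mean of at least 5, in their order along the chromosome and not to scale (horizontal axis), with *Bcl11b* in red and the *Dlk1* domain in green. *Dlk1* (−1.04) is past the dashed 1.5-fold line, *Meg3*, *Rian* and *Mirg* lie between −0.40 and −0.32, and the 10 genes in between lie from −0.25 to 0.16.

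Of the other 9 genes, 7 had listed imprinted neighbours within 3 Mb, and *Grb10* and *Plagl1* had none. Near *Igf2*, the cyclin-dependent kinase inhibitor gene *Cdkn1c* read 11.96 in BCL11B-/- and 12.67 in BCL11B+/+ MEFs, 1.64-fold lower on its only probe set. The study picked *Cdkn1c* from these arrays, so its direction is not independent evidence. Beside it, *Kcnq1ot1* differed by 0.060 (by −0.65 on a dimmer probe set) and *Osbpl5* by −0.11. *Slc22a18*, also near *Igf2*, differed by 0 on its brighter probe set and by −0.34 on the other. Near *Sgce* lies *Asb4*, which encodes a subunit of a ubiquitin ligase. It read 7.77 in BCL11B-/- and 6.48 in BCL11B+/+ MEFs, 2.44-fold higher, and its other probe set differed by 1.31. *Peg10*, which lies next to *Sgce*, read under the level of 5 in both arrays. *Airn*, the antisense RNA of the *Igf2r* domain, differed by 0.21. Next to *Mest*, *Copg2* differed by 0.14 and *Klf14* by −0.073, next to *Peg3*, *Zim1* differed by 0.10, and next to *Nnat*, *Blcap* differed by 0.041. Near *Ndn*, *Magel2*, *Snrpn* and *Peg12* differed by 0.014, 0.060 and −0.079. Apart from *Cdkn1c* and *Asb4*, no measured neighbour of these 7 genes was past 1.5-fold on its brightest probe set.

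Outside the 10, 22 imprinted genes passed the level of 5, and their median difference was 0.0068. At 1.5-fold, 1 was higher, 2 lower and 19 neither, beside 1.61% higher and 1.75% lower of all genes counted. The lower ones of the 22 were *Cdkn1c* and *Nap1l5*, which encodes a protein of the nucleosome assembly family. *Nap1l5* read 7.10 in BCL11B-/- and 8.64 in BCL11B+/+ MEFs, 2.90-fold lower on its only probe set, the lowest difference of the 32 imprinted genes measured. The higher one was *Asb4*. Of the 10 paternally expressed genes among the 22, 6 were above 0 and 4 below, and of the 12 maternally expressed ones 5 were above and 6 below. *Slc38a4*, a gene of amino acid transport, was just short of 1.5-fold at 0.47 on its brighter probe set, and at 0.61 as the mean of both it was past it. *Zdbf2* and *Impact*, a gene of translational control, differed by −0.49 and −0.46. A further 7 listed genes, such as *Phlda2*, *Mkrn3* and *Usp29*, had a mean under 5, and *H19* had no probe set paired with it alone.

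**Figure D3:**
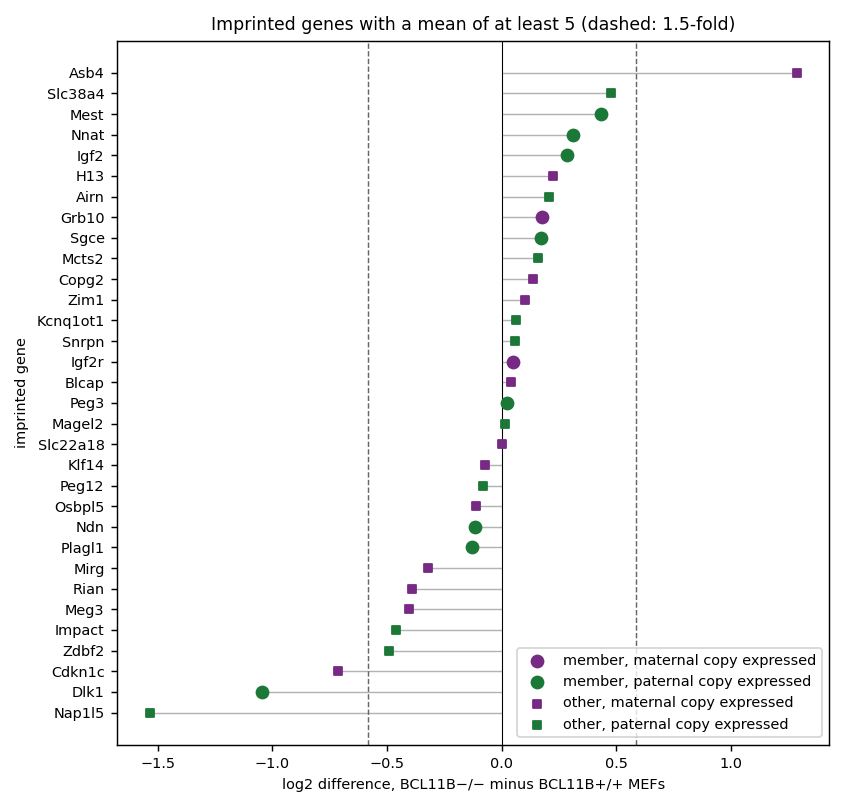
Log2 difference between BCL11B-/- and BCL11B+/+ MEFs (horizontal axis) of 32 imprinted genes with a mean of at least 5 (vertical axis), circles for the 10 genes and squares for others, green for paternally and purple for maternally expressed. *Nap1l5* (−1.54), *Dlk1* (−1.04) and *Cdkn1c* (−0.71) lie left of the dashed 1.5-fold line and *Asb4* (1.29) right of it.

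Partners of the IGF genes were read from a list of receptors, substrates and binding proteins. Of 14 measured, none was at least 1.5-fold higher, 2 were lower and 12 were neither, with a median of −0.11. Over all genes counted, 1.61% were higher and 1.75% lower. *Igfbp3*, the main carrier of IGFs in blood, read 11.30 in BCL11B-/- and 12.32 in BCL11B+/+ MEFs, 2.03-fold lower, and its other probe set differed by −1.24. *Igfbp2* read 10.78 in BCL11B-/- and 11.42 in BCL11B+/+ MEFs, 1.56-fold lower on its only probe set. On their brightest probe sets the receptor genes *Igf1r* and *Insr* differed by −0.037 and −0.34, and the ligand gene *Igf1* by 0.11. *Irs1*, the substrate of both receptors, differed by 0.50. *Igf2bp3*, which encodes an RNA-binding protein that holds *Igf2* mRNA, differed by −0.31, and all 6 of its probe sets lay below 0. The probe sets of its relative *Igf2bp1* disagreed, with −0.32, −0.20, 0.082 and 0.21. Those of *M6pr*, the other mannose 6-phosphate receptor gene, disagreed too, with −0.13 and 0.092.

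Of 11 measured Notch pathway genes, which stand beside *Dlk1*, none was past 1.5-fold, with a median of 0.026. The highest was *Notch3* with 0.32 and the lowest the target gene *Hes1* with −0.30. *Dlk2*, the close relative of *Dlk1*, read 5.86 in BCL11B-/- and 5.71 in BCL11B+/+ MEFs. *Adam17*, the protease gene whose product sheds DLK1, differed by −0.14 on its brightest probe set and by 0.18 and 0.32 on the others, which gives no single direction. Of 9 genes of the preadipocyte state 2 were higher, 1 was lower and 6 were neither, with a median of 0.19. The shares over all genes counted were 1.61% higher and 1.75% lower. *Gata2*, a factor that holds cells as preadipocytes, read 7.28 in BCL11B-/- and 6.46 in BCL11B+/+ MEFs, but its other probe set differed by 0.076. *Sox9*, a factor of cartilage that acts downstream of DLK1 in mouse preadipocytes, read 8.06 in BCL11B-/- and 7.42 in BCL11B+/+ MEFs. The next *Sox9* probe set agreed, with a difference of 0.69, and its last, with a mean of 4.88, differed by 0.33. As the mean over all probe sets *Gata2* was at 0.45 and *Sox9* at 0.55, both short of 1.5-fold, *Sox9* through the probe set under the level of 5. *Cd34*, a surface marker of adipocyte progenitors, read 9.01 in BCL11B-/- and 9.68 in BCL11B+/+ MEFs, a difference of −0.67.

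Of 15 genes listed for imprint maintenance, 1 was lower and 14 were neither, with a median of 0.0045. The share lower over all genes counted was 1.75%. Not all of the 15 set or keep methylation, since the list also holds *Ctcf* and the *Tet* genes. *Dnmt3a*, which encodes an enzyme of de novo DNA methylation, read 8.25 in BCL11B-/- and 8.89 in BCL11B+/+ MEFs, a difference of −0.64. Its dimmer probe sets differed by −0.46, −0.44, −0.64 and 0.14, so the last went the other way. The mean over its 5 probe sets was −0.41. *Zfp57*, *Trim28*, *Ctcf* and *Dnmt1* differed by 0.033, 0.046, 0.0060 and −0.097. *Tet1* differed by −0.34 on its brightest probe set. Its dimmer ones with a mean of at least 5 differed by −0.61 and −0.60, past 1.5-fold. Of 8 measured genes of the sarcoglycan and dystrophin complex, to which the *Sgce* product belongs, none was past 1.5-fold. *Sgcb*, which encodes β-sarcoglycan, was the highest with 0.42, and *Dmd* the lowest with −0.15.

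**Figure D4:**
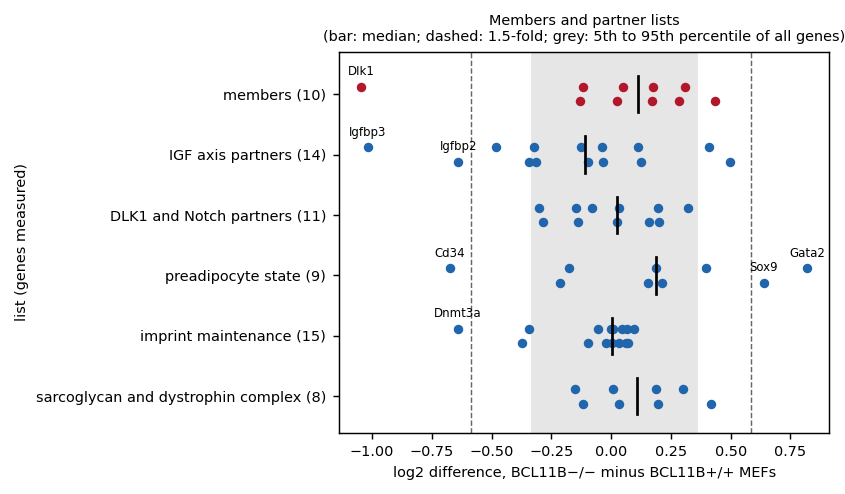
Log2 difference between BCL11B-/- and BCL11B+/+ MEFs (horizontal axis) of the 10 genes (red) and of 5 lists of partner genes (blue; vertical axis, with each list's gene number), with list medians as black bars and the 5th to 95th percentile of all genes counted, −0.33 to 0.36, in grey. *Dlk1*, *Igfbp3*, *Igfbp2*, *Cd34*, *Dnmt3a*, *Sox9* and *Gata2* lie past the dashed 1.5-fold lines.

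Other embryonic cell types also express *Dlk1* and its relatives, so their markers are given beside these results. Over all genes counted, 1.75% were at least 1.5-fold lower and 1.61% higher. Of 13 skeletal muscle markers 7 had a mean under 5, among them *Myod1*, *Myf5* and *Myog*, and of the 6 others *Actc1* (−0.81) and *Tnnt2* (−0.77), which heart muscle also expresses, were lower in BCL11B-/- MEFs and 0 were higher. On the linear scale the 13 summed to 758 in BCL11B-/- and 942 in BCL11B+/+ MEFs. This sum and those below add probe sets of unlike affinity, so the brightest weigh most. They also include markers with a mean under 5, so they do not measure amounts of cells. Of 7 hepatoblast markers 4 had a mean under 5, among them *Afp* and *Alb*. The 7 summed to 207 in BCL11B-/- and 202 in BCL11B+/+ MEFs. The sums take each gene's brightest probe set, which for *Ttr* differed by 0.10. The other *Ttr* probe set with a mean of at least 5 differed by −1.12, past 1.5-fold. Those of *Ttr* with a mean under 5 differed by −0.26 and −1.32. The 10 chondrocyte markers summed to 835 in BCL11B-/- and 429 in BCL11B+/+ MEFs, led by *Comp* (1.63), *Col2a1* (1.29), *Col9a1* (1.11) and *Hapln1* (1.03). The 11 macrophage markers summed to 2627 in BCL11B-/- and 4596 in BCL11B+/+ MEFs, with *Laptm5*, *Tyrobp*, *Lyz2* and *C1qa* the lowest, from −0.95 to −0.88. For *Laptm5* this rests on its brightest probe set, as its others with a mean of at least 5 differed by −0.35, 0.040 and −0.13. The 8 mesothelial markers summed to 2682 in BCL11B-/- and 3468 in BCL11B+/+ MEFs, and none of 3 measured endothelial markers was past 1.5-fold. Of 11 neuron markers 8 had a mean under 5, among them *Snap25* and *Dcx*, and 2 of the other 3, *Tubb3* (0.61) and *Stmn2* (0.65), were higher in BCL11B-/- MEFs. The dimmer *Stmn2* probe set differed by 0.20, short of 1.5-fold. The neuron markers summed to 439 in BCL11B-/- and 353 in BCL11B+/+ MEFs. The part of these cells in the values of the 10 genes was not tested, and fewer cells of a type cannot be told apart from less RNA per cell in such cultures.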

How the data were processed

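Total RNA of 2 MEF cultures, BCL11B-/- and BCL11B+/+, was amplified from 100 ng and hybridized by the authors to Affymetrix whole-genome mouse arrays, 1 for each genotype. The deposited values are log2 expression, made by the authors with RMA in R, version 3.0.3 per the labels. RMA corrects background, equalises the distributions of both arrays and summarises probes, so a change of total mRNA would not be seen, differences of dim genes are pulled toward 0, and exact ties arise (328 genes with a difference of 0). The arrays' medians were 5.28 for both genotypes.

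Of 45101 probe sets, 34945 besides controls were paired with 1 gene, 932 with several and 9211 with none, by the platform annotation. Of the 34945, 34741 matched an Entrez identifier in RefSeq GRCm38.p6. For each gene the probe set with the largest mean over both arrays was used, and 1.5-fold counts were taken over genes reaching a mean of 5. The number of arrays limits the precision, and no test was run. Named were the 10 genes with every probe set, list members past 1.5-fold or the extreme ones, the genes nearest to *Dlk1*, and *Bcl11b*, *Xist* and Y-linked genes. Other list members were named after their values were seen. The 10 genes and the lists were chosen with earlier results of these data known. Simulated data with known changes were used to test the counting. Alternatives were other choices of probe set, filters and folds, a loess curve (span 0.4) and median centring. Scripts ran in Python 3.11.15 with pandas 2.3.3, numpy 2.4.6 and matplotlib 3.10.9.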

Additional observations from a re-analysis of the deposited data

How the results depend on the processing

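Of 38 alternative values of the 10 genes' differences, 36 moved by less than 0.145 and 2 by more, and none past 1.5-fold changed sign. Without suffixed probe sets *Dlk1* rested on its dimmer probe set with −0.86, and as the mean of all probe sets *Grb10* was at 0.39 and *Peg3* at −0.023. *Dlk1* was the only one lower under each alternative run, with 3 genes higher at 1.2-fold. The causes of the changes below were not tested, except that looser or stricter thresholds count more or fewer genes by construction. At 1.2-fold, counts were 1086 higher and 962 lower of all genes, 2 and 7 of other imprinted genes, 2 and 6 of IGF partners, 1 and 2 of Notch genes, 3 lower of imprint maintenance genes, 2 higher of sarcoglycan genes and 4 lower between *Bcl11b* and *Dio3*. At 2-fold they were 43 higher and 62 lower of all genes, 1 lower of other imprinted genes, 1 lower of IGF partners, 0 and 0 of preadipocyte genes and 0 lower of imprint maintenance genes. With the filter raised to 7 they were 112 higher and 124 lower of all genes and 1 higher of preadipocyte genes. As the mean of all probe sets they were 2 higher of other imprinted genes (with *Slc38a4*), 0 higher of preadipocyte genes and 0 lower of imprint maintenance genes. Without suffixed probe sets they were 1 lower of IGF partners and 1 higher of preadipocyte genes, since *Igfbp2* and *Gata2* then have no probe set, and 2 lower of imprint maintenance genes, with *Tet1* at −0.61. The loess curve ranged from −0.011 to 0.016 and the median difference was 0, so neither changed a count by more than 1.5 times. No paired analysis was possible because each genotype has 1 array.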
